A study of Mus musculus with 4 samples.

Results

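The Bmp4 locus of the mouse was described in an Isl1 ChIP-seq series from the genital tubercle, the embryonic outgrowth from which penis or clitoris develops. Bmp4 lies on the minus strand of chromosome 14 from 46383525 to 46390669 in mm10. Its members were the Isl1 peaks whose midpoint fell in the gene or within 1 Mb of its nearest end, which was decided by position alone. These were 17 of the 8860 peaks of replicate 1 and 23 of the 10162 peaks of replicate 2. Peaks of the replicates that overlapped by at least 1 bp were joined into shared regions, of which 14 of 6834 in the whole series lay at Bmp4.

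The series held 2 Isl1 ChIP samples and 2 samples of input DNA, all of wildtype CD1 embryos at E14.5 (embryonic day). ChIP-seq recovers DNA cross-linked to a protein, here with a rabbit monoclonal antibody to ISL1, and counts where it maps. The labels give neither the sex or number of embryos behind a sample nor whether the replicates were separate chromatin preparations. No peak list of the input samples was used here, so there was no second condition, and the lists hold no expression values with which the tissue could be checked. Every value below is a position or the authors' peak score, a whole number per peak with a list median of 90 in replicate 1 and 96 in replicate 2. Read depth is unknown, and the lowest score in either list was 20, so a weaker site would not be listed.

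Bmp4 encodes a secreted bone morphogenetic protein of the TGF-beta superfamily. It binds a complex of serine/threonine kinase receptors, which phosphorylate the Smad proteins that enter the nucleus with Smad4, and it is held back by extracellular antagonists such as noggin. In the genital tubercle it is a mesenchymal signal. Its gene is flanked on both sides by long stretches without protein-coding genes, and distant enhancers on both sides are known to act on it in other embryonic tissues. Isl1 is a LIM-homeodomain transcription factor, and homeodomains commonly recognise DNA with a TAAT core.

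Neither list held a peak inside Bmp4 or at its promoter. Of 37 RefSeq start-site windows in the locus (250 bases before to 50 after a start, for 36 genes), 1 overlapped a shared region, that of Gmfb, against 2.81% of 32851 such windows over the genome. Gmfb encodes glia maturation factor beta, a regulator of the actin cytoskeleton. The 250 bases before both starts are printed 5′ to 3′ on the gene's own strand, from RefSeq in GRCm38.p6, which numbers chromosome positions as mm10 does. They set the start of the locus gene, where no peak was listed, beside the start with peaks. Capitals in Bmp4 mark its match to TAAT on either strand, and capitals in Gmfb mark the bases under the peaks of both replicates.
Bmp4, chr14:46390670-46390919, minus strand: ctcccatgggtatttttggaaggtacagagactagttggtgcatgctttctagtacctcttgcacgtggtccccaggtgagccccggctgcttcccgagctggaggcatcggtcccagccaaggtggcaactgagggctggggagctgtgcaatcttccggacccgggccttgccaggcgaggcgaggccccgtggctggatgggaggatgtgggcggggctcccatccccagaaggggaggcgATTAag
Gmfb, chr14:46822243-46822492, minus strand: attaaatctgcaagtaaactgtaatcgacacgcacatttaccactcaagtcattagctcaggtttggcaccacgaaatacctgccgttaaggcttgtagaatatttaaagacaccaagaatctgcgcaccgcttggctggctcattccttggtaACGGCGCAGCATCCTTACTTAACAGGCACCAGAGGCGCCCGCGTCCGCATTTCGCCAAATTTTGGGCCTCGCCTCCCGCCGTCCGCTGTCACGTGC
Before the Bmp4 start there was 1 match to TAAT, beginning 6 bases ahead of the start. The Gmfb sequence held 3 matches to TAAT, none of them under the peaks, and 1 to the longer CTAATG, which overlaps one of the 3 and begins 200 bases ahead of the start. Over all windows, 54.9% of the 250-base sequences held TAAT and 6.36% held CTAATG on either strand. Among the 923 windows that overlapped a shared region the shares were 43.2% and 4.12%. These shares were not adjusted for base composition, and matches were counted over all 250 bases, also outside the peaks. Before the Gmfb start the peak covered 100 bases in replicate 1 and 96 in replicate 2, and it ran 43 and 33 bases past the start.

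The 14 shared regions lay on both sides of the gene, 8 downstream (lower coordinates, towards Ddhd1) and 6 upstream (towards Cdkn3). They are called D1 to D8 and U1 to U6, counted outwards from Bmp4, and distances run from the midpoint of the overlap to the nearest end of the gene. None lay inside a protein-coding gene, 2 lay inside noncoding genes, and Bmp4 was the nearest protein-coding gene to 8 of them. Only 5 lay within 100 kb of any protein-coding gene: 3 by Bmp4, 1 by Fermt2 and 1 by Gmfb. The same shares over all 6834 regions are not given here, so these counts describe the locus alone. They also depend on its layout, since stretches of 725 and 370 kb beside Bmp4 hold no protein-coding gene.

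**Figure D1:**
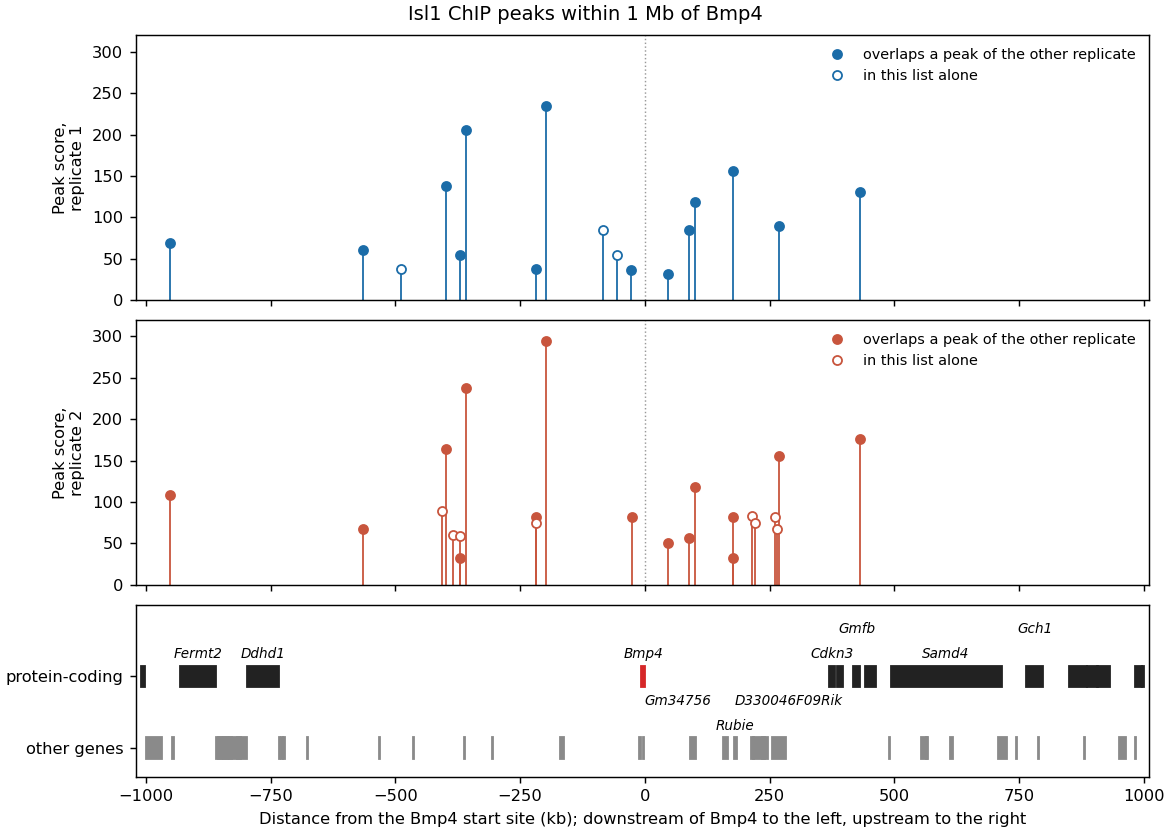
Authors' peak score (y) against distance from the Bmp4 start site in kb (x) for the 17 peaks of replicate 1 (top) and the 23 of replicate 2 (middle), with genes as bars below. Filled points overlap a peak of the other replicate and open points do not, and the tallest peaks of both lists (234 and 294) stand in the downstream stretch.

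The strongest region of the locus was D2, 192 kb downstream (46191705 to 46191916), with scores of 234 in replicate 1 and 294 in replicate 2. These were at or above 84.8% and 89.7% of the peaks in their lists. D4, 351 kb downstream (46032029 to 46032268), followed with scores of 206 and 238, at or above 82.6% and 84.9% of the lists. Both replicates thus placed their 2 highest peaks of the locus at the same 2 sites, although neither site was among the highest 10% of its list, which lay above 313 in replicate 1 and 304 in replicate 2.

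D6 (45992611 to 45993014, 391 kb away) had scores of 138 and 164, and its replicate 2 peak of 404 bp was the widest of that list at the locus. D5, between D6 and D4 (46019923 to 46020114, 364 kb away), was weak in both lists, with scores of 54 and 32. D6, D5 and D4 stood within 39.7 kb of each other, and replicate 2 added 2 peaks of its own there. No other 3 neighbouring regions of the locus lay as close together. The nearest protein-coding genes, Ddhd1 and Bmp4, were over 300 kb from each of them.

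D3 (46173012 to 46173222, 210 kb away) had scores of 37 and 82, and lay 18.7 kb beyond D2. D1, the region closest to Bmp4 (46363786 to 46364000, 19.6 kb away and 26.8 kb from the start site), had nearly the same pair of scores, 36 and 82. Both were among the lowest 10% of the replicate 1 list and nearer the middle of the replicate 2 list (39.9% at or below). The 2 farthest regions were D7 at 557 kb (45826197 to 45826406, scores 61 and 67) and D8 at 945 kb (45438696 to 45438898, scores 69 and 109). D8 was 20.0 kb from Fermt2, which encodes the integrin adaptor kindlin-2, and 387 kb without a peak of either list separated it from D7.

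Upstream, the regions nearest to Bmp4 were again weak. U1 (46436658 to 46436847, 46.0 kb away) had scores of 32 and 51, the lowest replicate 1 score of the locus. U2 (46478117 to 46478395, 87.6 kb away) had scores of 85 and 57. U3 (46490994 to 46491245, 100.4 kb away) had the most even pair, 119 and 118. U2 and U3 lay 12.8 kb apart on either side of the start of the noncoding gene Gm34756, U2 before it and U3 inside the gene.

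U4 (46566938 to 46567435, 176 kb away) was the widest region at 498 bp and the one region that joined 1 peak of replicate 1 (score 156) with 2 of replicate 2 (82 and 32). It lay 1.23 kb from Rubie, outside the end of that gene nearer to Bmp4. Rubie is a noncoding RNA gene upstream of Bmp4, known for its expression in the inner ear, and is transcribed towards Bmp4. U5 (46659490 to 46659739, 269 kb away), inside the noncoding gene D330046F09Rik, had scores of 90 and 156. U6 (46822200 to 46822342, 432 kb away) was the region at the Gmfb start, with scores of 131 and 176. U4 was stronger in replicate 1 and U5 in replicate 2, each by place in its list as well as by score (75.2% against 39.9%, and 50.1% against 72.3%).

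Shared regions overlap by definition, so the closeness of their peaks in the 2 replicates is a description and no measure of agreement. Over the 14 regions the overlap ran from 53 to 248 bp with a median of 150 bp, and the midpoints of the overlapping peaks differed by a median of 28.5 bp and at most 79 bp. In all 6834 regions the medians were 167 bp and 21 bp. Replicate 2 had the higher score in 10 of the 14 and the higher place in its list in 9, against 58.9% and 57.1% of all regions. Across these 14 regions the scores had a Spearman correlation of 0.78, and across all regions 0.72. The points share libraries and a threshold, and the value is a description.

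**Figure D2:**
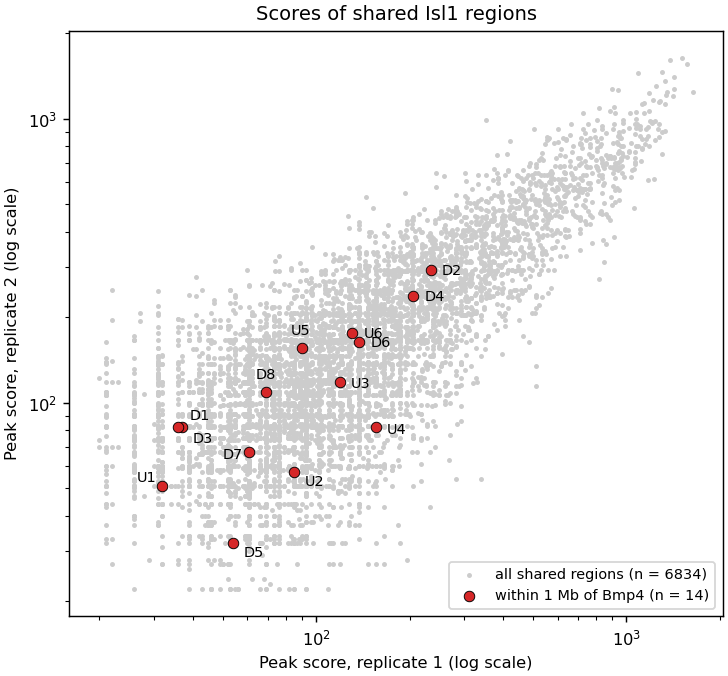
Score in replicate 2 (y, log scale) against score in replicate 1 (x, log scale) for all 6834 shared regions (grey) and the 14 within 1 Mb of Bmp4 (red, with their names). The Bmp4 regions run from the weak end of the cloud up to D2 at 234 and 294, and none is among the highest 10% of either list.

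In replicate 1, 14 of the 17 peaks were shared (82.4%, Wilson 95% interval 59.0 to 93.8%), against 78.5% of the whole list. In replicate 2, 15 of the 23 were shared (65.2%, 44.9 to 81.2%), against 68.3%. Both shares were near those of the lists, and the intervals cover counting error only. The 3 unshared peaks of replicate 1 had scores of 37, 55 and 85, and the 8 of replicate 2 ran from 59 to 89. Every peak of the locus above those maxima was shared, 7 in each list, where 92.4% and 86.9% of the peaks above the same scores were shared over the whole lists. These limits were set from the locus itself and are given as a description.

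The unshared peaks were few, and the difference in their spread over the locus between the lists was not tested. Replicate 1 had its 3 downstream, at 49.7 kb (46333680 to 46333954, score 55), 76.4 kb (46307052 to 46307189, score 85) and 481 kb (45902204 to 45902311, score 37), and none upstream. Replicate 2 had 4 downstream and 4 upstream. Of the 4 downstream, 2 lay within 500 bp of a replicate 1 peak without touching it, beside D5 (gap 368 bp) and beside D3 (gap 482 bp). The 4 upstream peaks lay 214 to 265 kb from Bmp4 over 51.0 kb, inside the noncoding genes 4933425B07Rik (scores 83 and 75) and D330046F09Rik (82 and 67). With U5 they made 5 peaks of replicate 2 in 55.2 kb, where replicate 1 had the single peak of U5.

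Scores within 100 kb of the gene were low. The 3 regions there, D1, U1 and U2, had lower scores (the smaller of the 2 replicates' values) of 36, 32 and 57. The 11 farther regions ran from 32 to 234 with a median of 90. All 5 regions with at least 100 in both replicates, D2, D4, D6, U6 and U3, were farther than 100 kb. U3, at 100.4 kb, was only just beyond that limit. Of the farther regions, D5 (32) and D3 (37) were as weak as those near the gene. Over the 14 regions the median lower score was 75.5, against 91 in the whole series, and 5 of the 14 were above that series median. In each list the locus was likewise on the weak side, with median scores of 85 and 82, and 6 of 17 and 7 of 23 peaks above the list's own median.

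By its number of regions the locus stood high among protein-coding genes. Bmp4 had 12 shared regions within 500 kb, where the median of 21887 protein-coding genes was 2 (quartiles 1 and 4), and 0.923% of the genes had as many or more. Within 1 Mb it had 14 against a median of 5, and 4.03% of genes had as many or more. Within 250 kb the count was 7 against a median of 1, within 100 kb 3 against 0 and within 50 kb 2 against 0. Inside the gene it was 0, which is also the median. Genes close together count the same regions, so these shares describe a place in the genome and not Bmp4 alone. The shares also depend on weak regions. With a score of at least 100, 5 regions were left within 500 kb and 5 within 1 Mb. The share of genes with fewer regions then fell from 99.1% to 93.4% within 500 kb, and from 96.0% to 78.3% within 1 Mb.

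**Figure D3:**
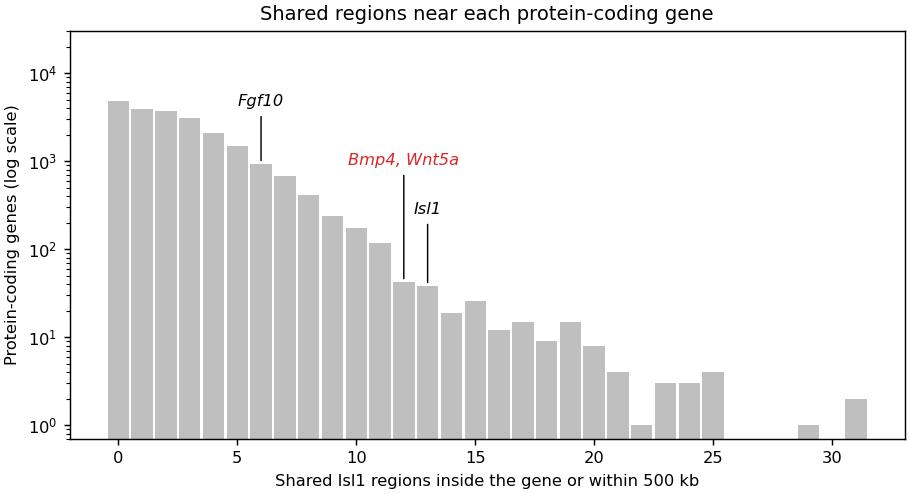
Number of protein-coding genes (y, log scale) by shared Isl1 regions inside them or within 500 kb (x). Bmp4 and Wnt5a have 12, Isl1 13 and Fgf10 6, against a median of 2 over all genes.

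Set beside 3 other loci of tubercle development, Bmp4 was most like Isl1 itself in its count within 1 Mb. Within 250 kb it equalled Isl1 (7 each), and within 500 kb Wnt5a (12 each). Within 100 kb Wnt5a and Fgf10, with 2 regions each, were nearer to its 3 than Isl1 was. Isl1 had 13 regions within 500 kb and 15 within 1 Mb, also none inside the gene, but with its nearest region at 3.62 kb, 5 regions within 100 kb against 3, and a median lower score of 106. Wnt5a, the gene of a Wnt ligand active where appendages grow out, had 12 within 500 kb and 31 within 1 Mb, with the nearest at 31.1 kb. Fgf10, a mesenchymal fibroblast growth factor, had 6 in each window and 1 inside the gene. The median lower score was 108 at Wnt5a and 56.5 at Fgf10, against 75.5 at Bmp4. No test was made of these differences.

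Most of the regions at Bmp4 lay in the stretches that part it from the next protein-coding genes. The downstream stretch, 725 kb to Ddhd1, held 7 regions (0.97 per 100 kb), and the upstream stretch, 370 kb to Cdkn3, held 5 (1.35 per 100 kb). Among 1164 stretches of at least 300 kb without a protein-coding gene, the median density was 0.095 per 100 kb and 45.4% held no region. The downstream stretch was denser than 93.9% of them and the upstream stretch than 96.9%. The 1164 include many stretches of chromosome Y, all without a region, which raise the share of empty stretches and both ranks. By single lists, replicate 1 placed 10 peaks downstream and 5 upstream, and replicate 2 placed 11 and 10.

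**Figure D4:**
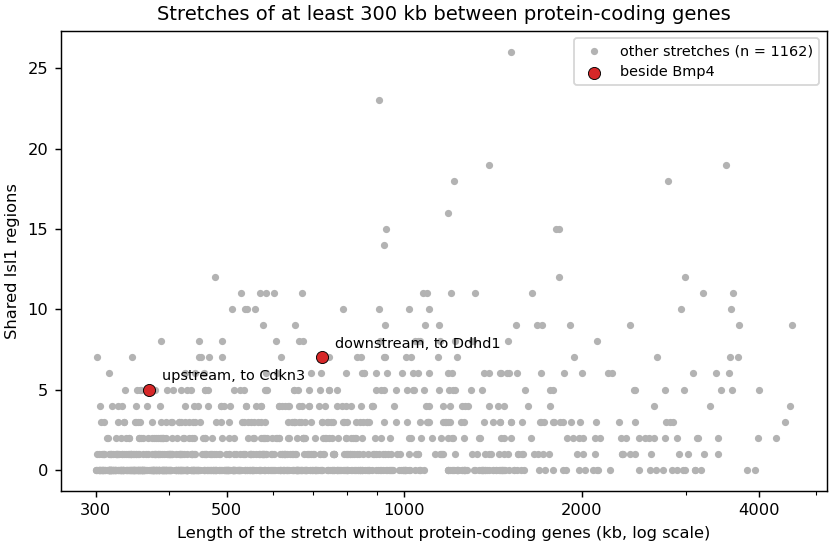
Shared Isl1 regions (y) against length in kb (x, log scale) for 1164 stretches of at least 300 kb between neighbouring protein-coding genes. The stretches beside Bmp4 (red) hold 7 regions downstream and 5 upstream, where the median stretch holds 1.

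The gene-rich remainder of the window held fewer regions than the stretches beside Bmp4. Above the upstream stretch, 630 kb with 12 protein-coding genes held U6 alone (0.159 per 100 kb), and neither list had a peak in the last 568 kb, from Cgrrf1 to the window's end in Dlgap5. This part includes Gch1, which encodes the first enzyme of tetrahydrobiopterin synthesis, Socs4, a suppressor of cytokine signalling, and Lgals3, which encodes galectin-3. Below the downstream stretch, 275 kb with Gnpnat1, Fermt2 and Ddhd1 held D8 alone (0.364 per 100 kb). Of the 16 protein-coding genes of the window, Bmp4 had the highest count within 500 kb, followed by Cdkn3, Cnih1, Gmfb and Cgrrf1 with 7 each, which share regions with it, and the median was 4.5.

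The genes whose profile of counts was most like that of Bmp4 were found by comparing 6 distance classes, from inside the gene to 1 Mb, over 21853 protein-coding genes more than 2 Mb away. Bmp4 had 0, 2, 1, 4, 5 and 2 regions in these classes. Dapk3, a death-associated kinase gene, and Map2k2, a MAP kinase kinase gene, both on chromosome 10, each differed by 1 region in total. A further 6 genes tied at a difference of 2: Art4, BC049715, Gucy2c and Smco3 on chromosome 6, Ptcd2 on chromosome 13 and Tle5 on chromosome 10. Genes on the same chromosome in this group can count the same regions.

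The other genes of the Bmp pathway were taken from a list of 40, Bmp4 included, grouped by role. In all, 35 of 40 (87.5%) had a shared region within 500 kb, against 78.0% of all protein-coding genes, and their median count was 4 against 2. Bmp4 itself held the second highest count, after the ligand gene Bmp5 with 13. Among the other ligands, Bmp7 had 7, Bmp3 5, Bmp2 4 and Gdf7 none. The ligand genes alone spanned the range of the whole list, from 0 to 13.

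Of the receptor genes, Bmpr1b had 11, none of them inside it, and Acvr1 had 6, while Bmpr1a and Acvr2b had none within 500 kb. All 6 Smad genes had at least 1: the inhibitory Smad6 and the receptor-activated Smad9 had 8 each, and Smad4, the common partner, had 1. Among the antagonists, Bambi (a decoy receptor), Bmper and Nbl1 had 7 each, Grem1 4 and Nog, the gene of noggin, 2. Of the genes that respond to Bmp signals, Msx1 had 9, Id2 and Msx2 4 each and Id1 none. A region inside the gene was present at 6 of the 40 (8.32% of all protein-coding genes had one), among them the ligand genes Bmp5 (2) and Bmp7 (1), and at Bmp4 there was none.

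**Figure D5:**
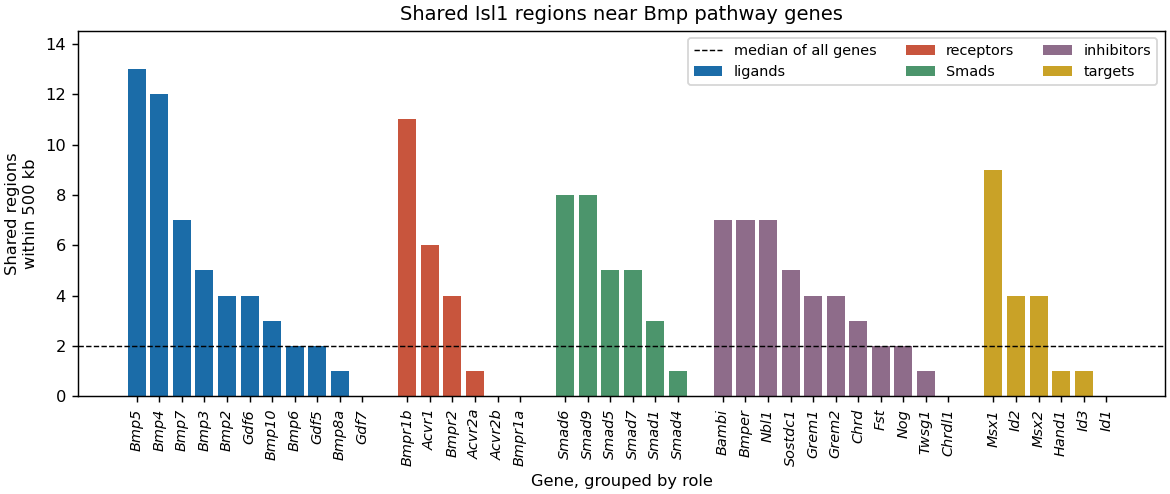
Shared Isl1 regions inside the gene or within 500 kb (y) for 40 Bmp pathway genes (x), coloured by role, with a dashed line at the median of all protein-coding genes (2). Bmp5 (13), Bmp4 (12) and Bmpr1b (11) are the highest, and Gdf7, Acvr2b, Bmpr1a, Chrdl1 and Id1 have none.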

How the data were processed

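Peak lists of 2 Isl1 ChIP samples were used, grouped and numbered by their titles. Trimmomatic 0.35, Bowtie2 2.2.6, MACS2 2.1.0.20150731 and bedtools are named, with build mm10, per the submitters' processing notes, without order or settings. The authors deposited 1 list per sample with a score for each peak, and its formula, the threshold and the use of input are not stated in these sources. A higher threshold or depth would change which weak peaks are listed, and scores are not known to be comparable between libraries.

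Peaks were joined where they overlapped by at least 1 bp, and the midpoint of the longest overlap placed a region. Regions were assigned to the protein-coding gene around them or, outside genes, to the nearest within 100 kb. Where a region joined several peaks of a list, its score was the highest. Genes came from a RefSeq table (GRCm38.p6) without exons, and strand and start sites from the RefSeq promoter table. All 40 listed genes matched. Counts were described beside those of all protein-coding genes, with no test. Shares carry Wilson 95% intervals. The interval and counting rules were tested on simulated data (Python 3.11.15, pandas 2.3.3, scipy 1.17.1).

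The locus, gene lists and alternatives were chosen with earlier results of these data known. The rule for names took Bmp4, genes of the window nearest to a region, the pathway list, 3 comparison loci and the 5 genes of most similar profile, with ties by symbol, to which 3 genes tied with the last of them were added. Other genes of the window, the stretches between genes, the score limits of sharing and the Bmp4 promoter were added after values were seen.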

Additional observations from a re-analysis of the deposited data

How the results depend on the processing

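Of 41 alternative values, 30 stayed within the limits set (1.5 times for counts and distances, the Wilson interval for shares, 0.1 for the correlation) and 11 did not. The percentage of peaks shared ran from 64.7 to 83.3% in replicate 1 and from 47.6 to 71.4% in replicate 2. These values counted as unchanged only because the Wilson intervals of so few peaks are wide. Reciprocal overlap of at least 50% left 11 regions within 1 Mb and 10 within 500 kb, and the midpoint of the joined span changed neither count. With a score of at least 100, 5 regions were left within 1 Mb and the same number within 500 kb, 0 were assigned to Bmp4, the nearest lay 100.4 kb away, and the correlation was 0.90 over 5 regions. With a score of at least 50, 1 was assigned and the nearest lay 87.6 kb away. By 1 replicate alone, the peaks numbered 17 to 23 within 1 Mb, 15 to 21 within 500 kb and 3 to 5 assigned, replicate 1 giving the higher number of assigned peaks and replicate 2 the higher numbers within both windows. The share of genes with fewer regions within 500 kb was 93.4% or more in every setting run, and within 1 Mb 78.3% or more, both lowest with a score of at least 100. Bmp pathway genes with a region numbered 19 within 100 kb, against 38.1% of all genes, and 40 within 1 Mb, against 90.7%. No paired analysis was possible because the samples that share replicate numbers are ChIP and input, and no input peak list was used here. Depth is unknown, the locus holds few peaks, and a site below the authors' threshold cannot be told from an unbound one.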

Other observations

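The limit of 1 Mb cut through no dense part of the locus. Upstream, the last peaks inside it were those of U6, and the first outside lay 1458 kb from Bmp4 in replicate 1 (score 58) and 1746 kb in replicate 2 (score 103). Downstream, the last inside were those of D8, and the first outside lay 1332 kb away in both lists (scores 166 and 206). No peak of either list therefore lay between 945 and 1332 kb downstream, or between 432 and 1458 kb upstream.

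The window held 37 genes other than protein-coding ones. The noncoding genes closest to Bmp4, Gm15217 (46379524 to 46383608) and Gm15222 (46387478 to 46389282), overlap it and, like it, held no peak. Of the upstream noncoding genes, Gm34756 and D330046F09Rik each held a shared region, while 4933425B07Rik held peaks of replicate 2 alone. The pseudogene Gm6580 lay 2.94 kb from D4, the second strongest region. Expression of these genes was not measured here.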
